A study of Mus musculus with 20 samples.

Results

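The 7 genes Trps1, Gbx2, Trh, Enpp3, Fut9, A2m and Icosl were taken from 37991 gene IDs counted in mouse embryonic stem cells (ESCs) that had lost Cnot3. They were selected on measured values, as genes with strong falls after the loss of Cnot3 outside the usual marker lists. They are not the lowest genes of the series. In total RNA on day 3, Trh ranked 208th and Icosl 476th from the lowest log2 change among 18303 genes tested. The contrasts taken to have chosen them are KO against WT on day 3, in total RNA and in polysomes, and before actinomycin D on day 2. The falls in those contrasts are therefore given as a description with no test. All 7 passed the filter on low counts in both fits.

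The data are 20 RNA-seq libraries in 10 groups of 2 biological replicates. In the KO groups, Cnot3 conditional knockout (cKO) ESCs received 0.1 µM 4-hydroxytamoxifen (4OHT). Total RNA and polysome-associated RNA were sequenced 3 days later, and in a separate series actinomycin D was added at 10 µg/ml on day 2, with collection after 0, 4 and 8 h. The WT groups are cells given DMSO, per the series description. The labels name the WT cells of day 3 as E14Tg2a ESCs and the WT cells of the actinomycin D series as Cnot3 cKO ESCs, so on day 3 the cell line and the deletion cannot be told apart. The labels give strain C57BL/6 for every group. Whether cells of the 4 h and 8 h libraries came from the same cultures as the 0 h libraries is not stated.

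CNOT3 belongs to CCR4-NOT, a deadenylase assembly that removes poly(A) tails and so starts the decay of mRNAs. Decay factors of the ZFP36 family bind AU-rich stretches of 3′UTRs, and Pumilio proteins bind UGUA-containing stretches, and both can bring CCR4-NOT to an mRNA. Actinomycin D blocks transcription, so the level left after it reflects loss of mRNA that was already made. Loss of a deadenylase subunit is known for making many mRNAs last longer, which is why genes that fell raise the question of whether their mRNA was lost faster or made less.

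The part of the message that these factors can read differs widely among the 7 genes. Trps1 and Fut9 have long 3′UTRs of 5923 and 10401 bases, Icosl and Enpp3 have 1622 and 1496, Gbx2 has 664, Trh has 502 and A2m has 119, against a median of 1112 over 14168 genes tested. These are the longest 3′UTR annotated for each gene in GENCODE M21 on GRCm38. The motifs were searched on the transcript strand. AUUUA is the core of AU-rich elements. A longer one, UAUUUAU, contains that core and so overlaps it. The Pumilio motif UGUANAUA has any base at N. AUUUA occurs in 68.0% of all these 3′UTRs, UAUUUAU in 28.7% and UGUANAUA in 25.2%. Fut9 holds 51 AUUUA, 7 UAUUUAU and 4 UGUANAUA matches. Trps1 holds 11, 3 and 4, Enpp3 holds 5, 1 and 2, and Gbx2 holds 3, 1 and 1. Trh holds no AUUUA and 2 UGUANAUA matches, Icosl holds 1 AUUUA alone, and A2m holds none of the 3 motifs. Long 3′UTRs hold more matches by length alone, and a match is not a shown binding site. Windows of 30 bases are printed 5′ to 3′ for the 3 genes that lost most mRNA after actinomycin D and for Enpp3, Trh and Icosl, which did not, with the motif in capitals.
Gbx2 UAUUUAU, base 184 of the 3′UTR: gauacacuaaaUAUUUAUuauacaacccua
Gbx2 UGUANAUA, base 206: caacccuacuuUGUACAUAgaucucuaucu
Trps1 UAUUUAU, base 991: guaaccugcugUAUUUAUuuauuuucuuuu
Trps1 UGUANAUA, base 647: ccagcccugccUGUACAUAcacauacacac
Fut9 UAUUUAU, base 2407: aacuaacucguUAUUUAUuuaugacauauu
Enpp3 UAUUUAU, base 172: ucauuuaauuuUAUUUAUucuucugcccuc
Trh UGUANAUA, base 100: ccugggcccucUGUACAUAgcauccaccca
Icosl AUUUA, base 411: aagccugacuuuAUUUAggucucaggcuac

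Cnot3 itself checks the labels. Its level in KO libraries was 16.6% of WT in total RNA on day 3, 18.3% in polysomes and 10.8% at 0 h on day 2. Libraries held 13832829 to 35170012 counts. Total libraries of day 3 stood apart in kind from the others, with 0.666% to 1.18% of counts on histone genes against at most 0.0049% in polysome libraries and 0.00293% in the actinomycin D series, so a gene's level is compared only within one experiment. One WT polysome library (replicate 2) stood apart from its partner, with 5.02% of its counts on mitochondrial mRNAs, where the other 3 had 0.912% to 1.38%. Results that rest on it are given with and without it.

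All 7 genes were lower in both KO libraries than in both WT libraries at 0 h on day 2 and in both kinds of RNA on day 3. A choice on falls in these contrasts favours this. Such a separation downwards held for 39.4% of 18303 genes tested in total RNA, 34.0% in polysomes and 41.5% of 15823 genes at 0 h, and the edgeR quasi-likelihood test at an adjusted p of 0.05 called 12.2% of genes lower and 16.0% higher in total RNA, against 32.9% lower and 29.8% higher at 0 h. Levels below, other than the summed levels of cell type markers, are CPM, reads of a gene relative to the library's total after TMM scaling. Each group has 2 libraries, and ± after a log2 change is the standard error of the fit. In bulk RNA, fewer cells that make a gene and less RNA per cell cannot be told apart.

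**Figure D1:**
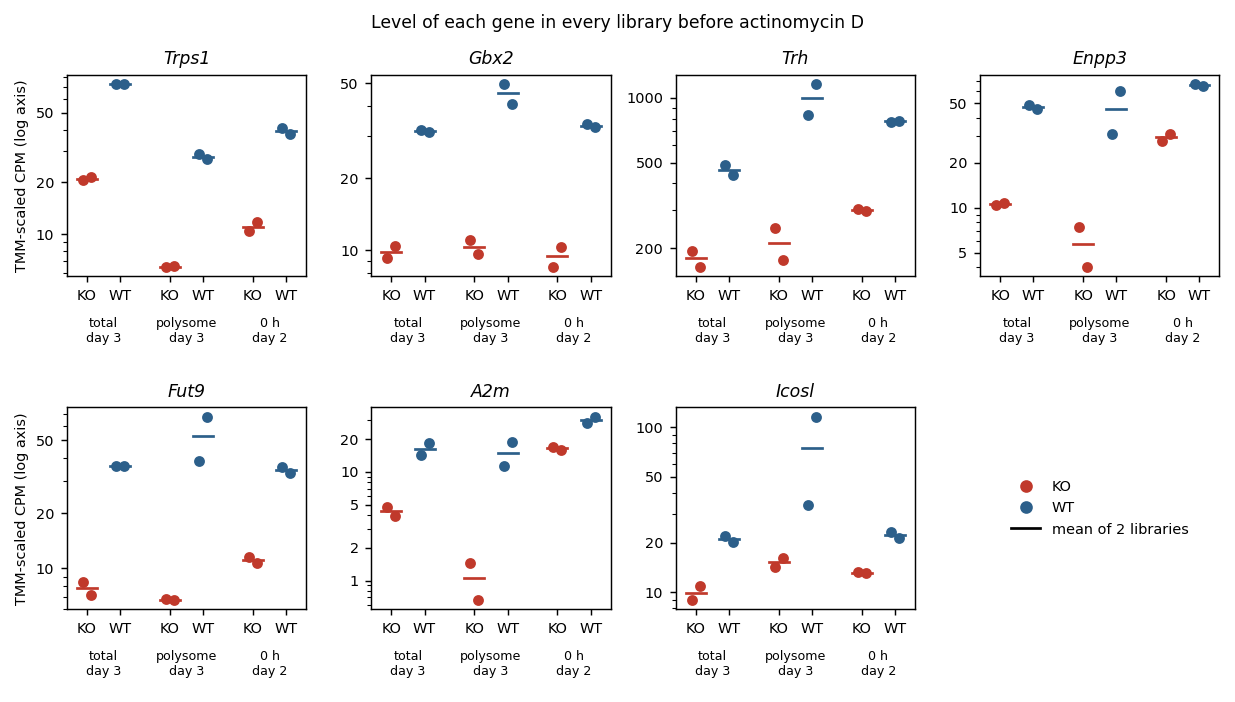
Level of each gene in TMM-scaled CPM on a log axis, in KO (red, left of each pair) and WT (blue) libraries of total RNA and polysomes on day 3 and of the 0 h libraries on day 2. Points are libraries and bars are means of 2. Every KO point lies below both WT points of its pair.

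Trps1 encodes a zinc finger protein of the GATA type that represses transcription. It lies on GRCm38 at chr15:50654752-50890463 on the minus strand, and the microRNA gene Mir1907 lies inside it. In total RNA it stood at 20.6 and 21.3 CPM in KO cells, against 72.9 and 73.5 CPM in WT cells. The replicates of each group lay close together and the groups were far apart. In polysomes the levels were 6.49 and 6.56 CPM in KO against 28.8 and 27.2 CPM in WT, and at 0 h on day 2 they were 10.4 and 11.8 CPM in KO against 41.0 and 37.8 CPM in WT. The log2 change was -1.80 ± 0.13 in total RNA and -2.10 ± 0.14 in polysomes on day 3, and -1.83 ± 0.093 at 0 h, so Trps1 was as low on day 2 as on day 3.

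Gbx2 encodes a homeobox factor that patterns the midbrain-hindbrain boundary and, in mouse ESCs, is a target of LIF and STAT3 that favours self-renewal. It lies at chr1:89927956-89931179 on the minus strand and overlaps the antisense gene D130058E05Rik, and whether counting used strand is not stated. Total RNA held 9.27 and 10.5 CPM of Gbx2 in KO cells against 31.8 and 31.3 CPM in WT cells. Polysomes held 11.0 and 9.62 CPM in KO against 49.8 and 40.8 CPM in WT, and the 0 h libraries held 8.50 and 10.3 CPM in KO against 33.6 and 32.9 CPM in WT. Gbx2 thus resembled Trps1, with a full fall by day 2. Its log2 changes were -1.68 ± 0.16 in total RNA and -2.14 ± 0.16 in polysomes on day 3, and -1.82 ± 0.096 at 0 h.

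Trh encodes the precursor of thyrotropin-releasing hormone, and A2m encodes a secreted protease inhibitor. Trh (chr6:92242061-92244650, minus strand) was by far the most abundant of the 7 per length of exon, at 335 ± 23.9 CPM per kb in WT total RNA (SD, n = 2). Its total RNA level was 195 and 164 CPM in KO cells against 487 and 440 CPM in WT cells, and its polysome level was 248 and 177 CPM in KO against 835 and 1161 CPM in WT. At 0 h it was 304 and 298 CPM in KO against 775 and 782 CPM in WT. The log2 change of Trh was -1.37 ± 0.22 in total RNA and -2.23 ± 0.23 in polysomes on day 3, and -1.37 ± 0.039 at 0 h, the same size on both days.

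A2m (chr6:121635376-121679227, plus strand) was the member with the deepest fall in polysomes. It had 1.46 and 0.662 CPM in KO polysomes, from 25 and 13 reads, against 11.3 and 18.9 CPM in WT polysomes. In total RNA it had 4.73 and 3.94 CPM in KO against 14.5 and 18.3 CPM in WT. On day 2 the gap was smaller, with 17.0 and 16.0 CPM in KO against 28.4 and 32.3 CPM in WT at 0 h. Its log2 changes were -1.92 ± 0.29 in total RNA and -3.86 ± 0.36 in polysomes on day 3, and -0.88 ± 0.16 at 0 h.

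Enpp3, on chr10:24772406-24842823 (minus strand), encodes a surface enzyme that cleaves extracellular nucleotides, and Fut9, on chr4:25609332-25800244 (minus strand), encodes the fucosyltransferase that makes the Lewis X (SSEA-1) epitope of mouse ESCs. Enpp3 had 10.4 and 10.7 CPM in KO total RNA against 48.7 and 45.8 CPM in WT total RNA. In polysomes it had 7.43 and 4.02 CPM in KO against 31.2 and 60.2 CPM in WT, and at 0 h 27.9 and 31.3 CPM in KO against 67.5 and 64.7 CPM in WT. Like A2m, it was less reduced on day 2 than on day 3, with log2 changes of -1.16 ± 0.058 at 0 h, -2.16 ± 0.30 in total RNA and -3.01 ± 0.33 in polysomes. Fut9 had 8.42 and 7.17 CPM in KO total RNA against 36.2 and 36.3 CPM in WT total RNA. It had 6.79 and 6.72 CPM in KO polysomes against 38.5 and 67.4 CPM in WT polysomes, and 11.5 and 10.7 CPM in KO against 35.6 and 33.3 CPM in WT at 0 h. Its log2 changes were -1.63 ± 0.087 at 0 h, -2.22 ± 0.235 in total RNA and -2.97 ± 0.25 in polysomes.

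Icosl, on chr10:78069302-78083913 (plus strand), encodes the ligand of the T cell costimulator ICOS and had the smallest KO change of the 7 in total RNA and at 0 h. In total RNA it was not among the genes called lower. It had 8.97 and 10.9 CPM in KO total RNA against 22.1 and 20.3 CPM in WT total RNA, and 13.2 and 13.1 CPM in KO against 23.3 and 21.3 CPM in WT at 0 h. In polysomes it had 14.3 and 16.1 CPM in KO against 33.8 and 116 CPM in WT. The WT polysome libraries thus disagreed with each other more for Icosl than for any other of the 7 genes. The log2 change was -1.09 ± 0.42 in total RNA, -0.76 ± 0.080 at 0 h and -2.31 ± 0.43 in polysomes, and the polysome value was -1.14 without WT polysome replicate 2, a shift of more than 1.5 times. The same omission gave -2.13 for Trps1, -2.27 for Gbx2, -1.97 for Trh, -2.46 for Enpp3, -2.50 for Fut9 and -3.43 for A2m.

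Per kb of exon, with exon lengths from GENCODE M21, the WT levels at 0 h ran in the order Trh (562 ± 3.62 CPM per kb), Gbx2 (15.3 ± 0.25), Enpp3 (11.0 ± 0.33), Icosl (4.82 ± 0.31), A2m (4.32 ± 0.40), Trps1 (2.95 ± 0.17) and Fut9 (2.49 ± 0.12; SD, n = 2 each). Icosl and A2m did not differ beyond their spread, and the other neighbours did. In WT total RNA on day 3, Trps1 (5.47 ± 0.033) stood above Icosl (4.58 ± 0.27), and Fut9 (2.62) and A2m (2.34 ± 0.39) differed by less than the SD of A2m.

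The KO change in polysomes was more negative than in total RNA for all 7 genes. The difference between these log2 changes was smallest for Trps1 at -0.30 ± 0.19 and largest for A2m at -1.94 ± 0.47, against a median of -0.08 over all genes tested. These differences rest in part on WT polysome replicate 2. Without it they were -0.03 for Icosl (-1.22 with it), -0.26 for Fut9 (-0.76), -0.27 for Enpp3 (-0.85), -0.31 for Trps1, -0.57 for Gbx2 (-0.46), -0.58 for Trh (-0.86) and -1.48 for A2m, so Icosl in place of Trps1 was nearest 0 and A2m was again the most negative. Over the 14 alternatives tried the values of Trps1 lay between -0.31 and -0.11. The differences were built from the contrasts that chose the genes and are given as a description. Setting the KO change of day 3 against that of day 2 in the same way gave -0.999 ± 0.17 for A2m, -0.96 ± 0.10 for Enpp3, -0.55 ± 0.12 for Fut9 and -0.30 ± 0.13 for Icosl. For Trps1, Gbx2 and Trh it lay between 0.04 and 0.18. The 2 days also differ in the kind of library and in the label of the WT cells.

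**Figure D2:**
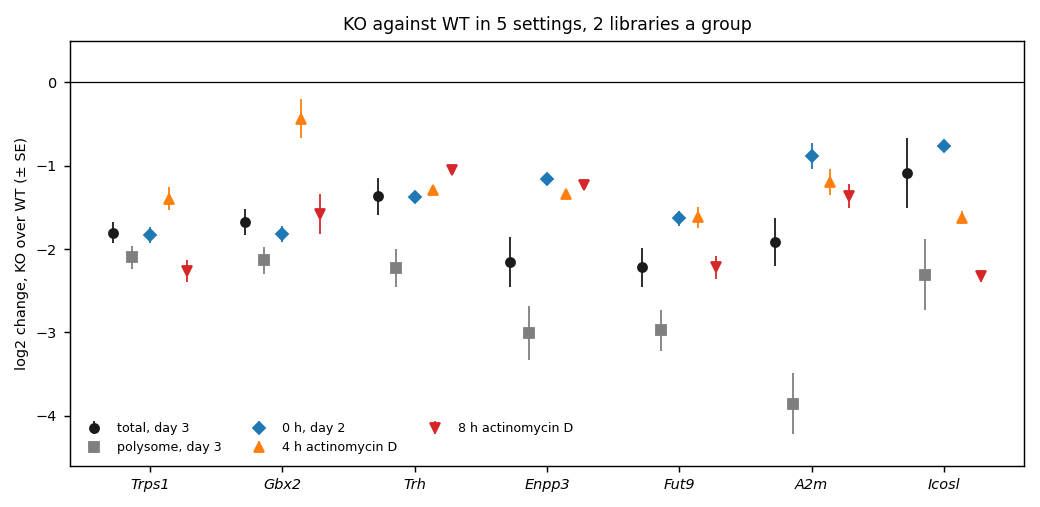
Log2 change of each gene, KO over WT, with the standard error of the fit, in total RNA and polysomes on day 3, at 0 h on day 2 and after 4 and 8 h of actinomycin D. The deepest point is A2m in polysomes at -3.86, and the point nearest 0 is Gbx2 at 4 h at -0.44.

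After actinomycin D the 7 genes split into 2 kinds of time course. Trps1, Gbx2 and Fut9 dropped to small shares of their 0 h level in KO and in WT cells. Trh, Enpp3 and A2m kept or gained level relative to the library in both, and Icosl gained in WT cells only. All such values are relative to the mRNA still in the library, since no spike-in is named in the labels. Ribosomal protein mRNAs took 1.81% and 1.76% of counts at 0 h and 2.77% and 2.80% at 8 h in KO libraries, against 2.14% in both libraries at 0 h and 3.75% and 3.76% at 8 h in WT libraries. A gene that keeps its relative level may thus still have lost mRNA.

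**Figure D3:**
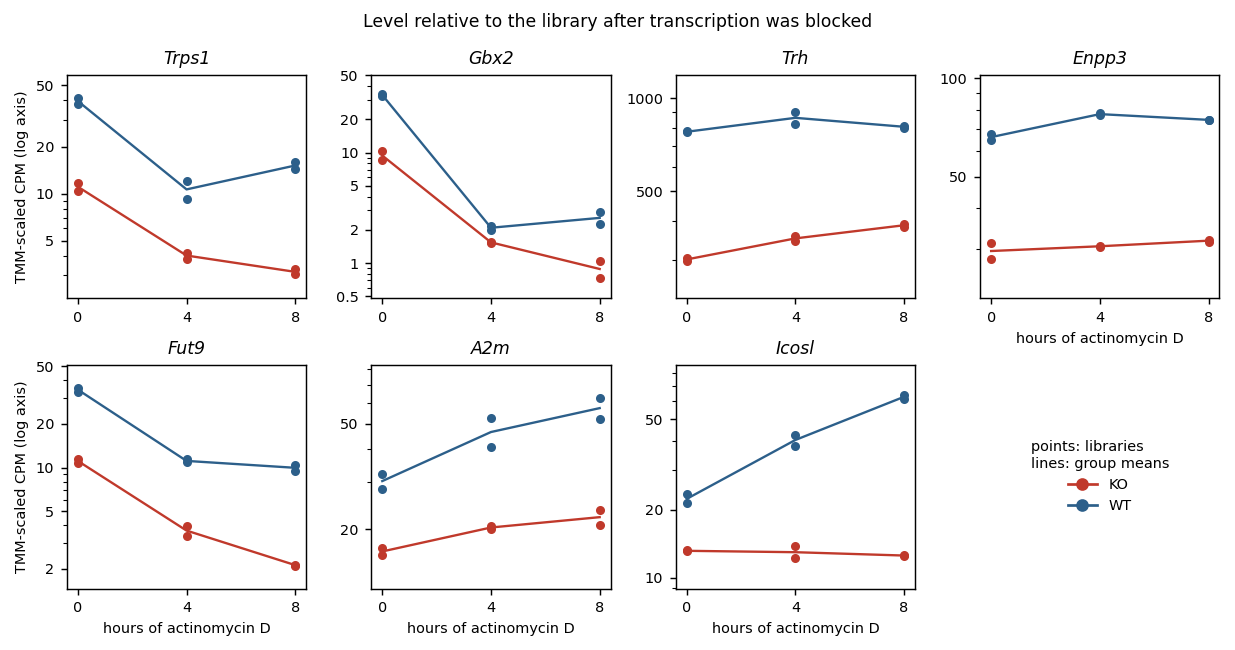
Level of each gene in TMM-scaled CPM on a log axis after 0, 4 and 8 h of actinomycin D, in KO (red) and WT (blue) cells. Points are libraries and lines join group means. Gbx2 in WT cells falls to 7.73% of its 0 h level by 8 h, and Icosl in WT cells reaches 281%.

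Gbx2 kept the smallest share of its 0 h level among the 7. At 4 h its levels were 1.56 and 1.53 CPM in KO against 2.17 and 2.02 CPM in WT, and at 8 h they were 0.728 and 1.05 CPM in KO against 2.89 and 2.25 CPM in WT, from 18 to 79 reads a library over both times. These levels were 16.4% of 0 h in KO and 6.29% in WT at 4 h, and 9.41% in KO and 7.73% in WT at 8 h. The share left was thus smaller in WT than in KO cells at both times. The KO change over 0 to 8 h minus the WT change was 0.24 ± 0.28 (log2), and it lay between -0.02 and 0.55 over the alternatives tried. At 4 h the KO level was lower than WT by -0.44 ± 0.23 (log2), which did not pass the edgeR test (adjusted p = 0.0954), and with scaling to ribosomal protein mRNAs the difference had the other sign, at 0.19. At 8 h it was lower by -1.58 ± 0.24 (adjusted p = 2.05e-07).

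Trps1 fell to 4.20 and 3.83 CPM in KO against 12.2 and 9.20 CPM in WT at 4 h. At 8 h it was 3.03 and 3.27 CPM in KO against 14.5 and 15.9 CPM in WT, which is 28.4% of 0 h in KO and 38.6% in WT. At 4 h the order was the other way, with 36.2% of 0 h left in KO and 27.1% in WT. The WT level was thus higher at 8 h than at 4 h relative to the library, and the KO level was not. Fut9 stood at 3.38 and 3.96 CPM in KO against 10.9 and 11.4 CPM in WT at 4 h, and at 2.10 and 2.14 CPM in KO against 9.45 and 10.5 CPM in WT at 8 h. The level of Fut9 left at 8 h was 19.1% of 0 h in KO and 28.9% in WT, while at 4 h it was 33.1% in KO and 32.2% in WT. Over 0 to 8 h the KO change minus the WT change was -0.43 ± 0.17 for Trps1 and -0.59 ± 0.17 for Fut9, and with scaling to ribosomal protein mRNAs these values were -0.13 and -0.28. These differences share the 0 h libraries on which the genes were chosen, so no test is given.

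Trh, Enpp3 and A2m showed no loss relative to the library in KO or WT cells. Trh had 345 and 359 CPM in KO against 902 and 825 CPM in WT at 4 h, and 393 and 383 CPM in KO against 815 and 800.45 CPM in WT at 8 h, that is 129% of 0 h in KO and 104% in WT. Enpp3 had 30.8 and 30.5 CPM in KO against 78.1 and 77.4 CPM in WT at 4 h, and 32.0 and 31.6 CPM in KO against 74.6 and 74.7 CPM in WT at 8 h. This was 108% of 0 h in KO and 113% in WT, so the gap between KO and WT at 0 h was carried through nearly whole. A2m had 20.5 and 20.1 CPM in KO against 40.7 and 52.3 CPM in WT at 4 h, and 20.7 and 23.6 CPM in KO against 52.1 and 62.3 CPM in WT at 8 h, or 135% of 0 h in KO and 188% in WT. The KO change over 0 to 8 h minus the WT change was 0.31 ± 0.054 for Trh, -0.07 ± 0.082 for Enpp3 and -0.48 ± 0.22 for A2m, and the value of Enpp3 lay between -0.14 and 0.23 over the alternatives tried. With scaling to ribosomal protein mRNAs it was 0.62 for Trh and -0.17 for A2m.

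Icosl had 13.8 and 12.2 CPM in KO against 42.7 and 38.2 CPM in WT at 4 h, and 12.5 and 12.6 CPM in KO against 63.9 and 61.5 CPM in WT at 8 h. The KO level stayed at 95.3% of 0 h while the WT level reached 281%. The KO change over 0 to 8 h minus the WT change was -1.57 ± 0.11, the most negative of the 7. It ranked 186th from the lowest among the 15823 genes tested, which is a description. Icosl may have been chosen for this pattern, so none of its values after actinomycin D is tested.

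**Figure D4:**
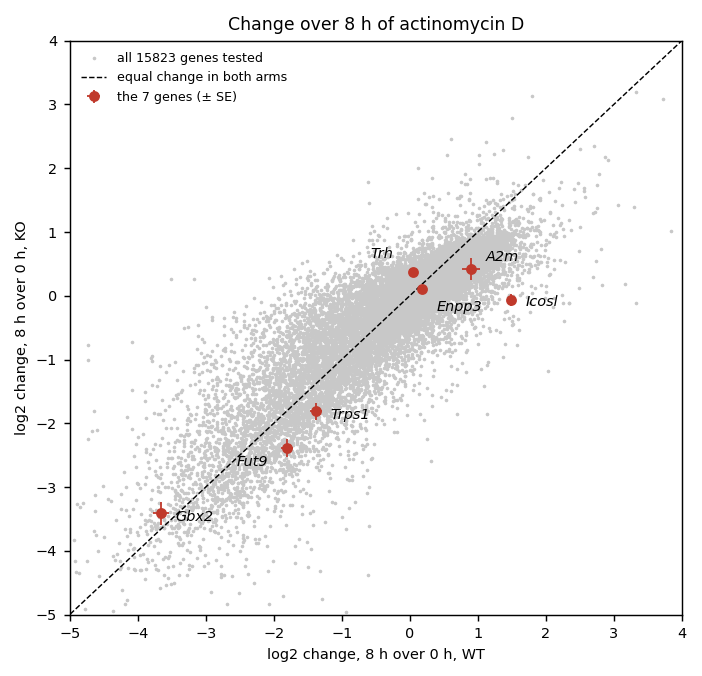
Log2 change from 0 to 8 h of actinomycin D in WT cells (horizontal) and KO cells (vertical), for the 15823 genes tested (grey; 74 lie outside the axes) and the 7 genes (red, with standard errors). Trps1, Fut9 and A2m lie below the line of equal change, Gbx2 and Trh lie slightly above it, Enpp3 lies near it, and Icosl lies farthest below it.

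The libraries at 4 and 8 h were taken as not used in the choice of the other 6 genes, and these 6 were tested there. This is an assumption, and the p-values at 4 h, at 8 h and between these times rest on it. At 4 h 5 of the 6 were lower in KO than in WT, where 32.7% of all genes tested were called lower, and at 8 h all 6 were lower, where 37.0% were. A gene already low at 0 h starts from that low level, so these calls repeat the fall at 0 h in later libraries and are no separate support for it. At 4 h the log2 changes of the 5 were -1.40 ± 0.14 for Trps1, -1.62 ± 0.13 for Fut9, -1.29 ± 0.039 for Trh, -1.34 ± 0.059 for Enpp3 and -1.19 ± 0.15 for A2m, with adjusted p between 1.84e-27 and 0.000172 in edgeR. The adjusted p at 8 h ran from 2.955e-25 for Trh, with a log2 change of -1.06 ± 0.039, to 4.17e-05 for A2m, with -1.36 ± 0.14. Trps1 changed by -2.26 ± 0.13, Fut9 by -2.22 ± 0.14 and Enpp3 by -1.23 ± 0.0575 at 8 h. These calls held with scaling to ribosomal protein mRNAs, but the changes were smaller. They were -0.77 for Trps1, -0.99 for Fut9, -0.67 for Trh, -0.72 for Enpp3 and -0.57 for A2m at 4 h, and -1.54 for Trps1, -0.85 for Gbx2, -1.50 for Fut9, -0.33 for Trh, -0.51 for Enpp3 and -0.64 for A2m at 8 h.

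The interval from 4 to 8 h uses no 0 h library, and the KO change over it was set against the WT change. Of the 6 genes, 3 had a more negative change in KO than in WT over this interval and 1 a more positive one, where 11.3% of all genes tested were called lower and 11.1% higher. Trps1 differed by -0.86 ± 0.20 (log2, KO minus WT; adjusted p = 0.00124), Gbx2 by -1.14 ± 0.34 (adjusted p = 0.0119) and Fut9 by -0.60 ± 0.20 (adjusted p = 0.0288) in the edgeR test. Trh differed the other way, by 0.24 ± 0.054 (adjusted p = 0.000986). Enpp3 at 0.11 ± 0.083 (adjusted p = 0.36) and A2m at -0.17 ± 0.21 (adjusted p = 0.666) did not pass. The calls of Trps1 and Trh held under each of the 15 alternatives tried. The call of Gbx2 was lost without KO 4 h replicate 1 (adjusted p = 0.0604), KO 8 h replicate 1 (0.11) or WT 8 h replicate 1 (0.116), with values of -0.89 to -1.15. The call of Fut9 was lost under 7 of 15 alternatives. These were the fits without KO 4 h replicate 2 (adjusted p = 0.134), WT 4 h replicate 1 (0.0526), KO 8 h replicate 1 (0.105), KO 8 h replicate 2 (0.0793) or WT 8 h replicate 2 (0.0877), scaling to ribosomal protein mRNAs (0.0743) and the fit of only the libraries compared (0.0603), and its value lay between -0.75 and -0.50 throughout.

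In KO cells alone, 2 of the 6 genes were lower and 1 was higher at 8 h than at 4 h, where 22.5% of all genes tested were called lower and 20.3% higher. Fut9 was lower by -0.77 ± 0.17 (adjusted p = 0.000352) and Gbx2 by -0.81 ± 0.27 (adjusted p = 0.0144) in the edgeR test. Trps1, at -0.36 ± 0.17, did not pass (adjusted p = 0.0821), so the called difference of Trps1 between KO and WT combines this value with a higher WT level at 8 h than at 4 h. Scaled to ribosomal protein mRNAs, Trps1 was lower in KO by -0.69 (adjusted p = 0.000601), and with library totals alone by -0.46 (adjusted p = 0.0266). Trh was higher by 0.14 ± 0.039 (adjusted p = 0.00272), and with scaling to ribosomal protein mRNAs it was lower, at -0.18 (adjusted p = 8.55e-05), so its direction holds only relative to the library. Enpp3 at 0.06 ± 0.064 did not pass (adjusted p = 0.516), and with that scaling it was lower, at -0.27 (adjusted p = 0.000681). The call of Gbx2 was lost without KO 4 h replicate 1 (adjusted p = 0.101) or KO 8 h replicate 1 (0.204), and that of Trh without the same libraries (0.10 and 0.0614) and with library totals alone (0.291).

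In WT cells alone, 1 of the 6 genes was lower and 1 was higher at 8 h than at 4 h, where 22.9% of all genes tested were called lower and 25.1% higher. Trps1 was higher by 0.50 ± 0.11 (adjusted p = 0.000134) and Trh lower by -0.096 ± 0.038 (adjusted p = 0.0331) in the edgeR test. The other 4 lay between -0.17 ± 0.10 for Fut9 and 0.33 ± 0.20 for Gbx2. Scaled to ribosomal protein mRNAs, the value of Trps1 was 0.08 and did not pass (adjusted p = 0.539), so a rise of Trps1 mRNA in WT cells after transcription was blocked holds only relative to the library. With the same scaling Trh was lower by -0.51 (adjusted p = 1.26e-16), and Fut9 at -0.59 (adjusted p = 6.78e-06) and Enpp3 at -0.48 (adjusted p = 3.08e-10) were lower too. Fut9 and Enpp3 also passed with library totals alone, at -0.31 (adjusted p = 0.0157) and -0.20 (adjusted p = 0.00138). The call of Trh was lost under 6 of 11 alternatives, with adjusted p up to 0.57, among them the fits without WT 4 h replicate 1, WT 8 h replicate 1 or WT 8 h replicate 2. A2m, at 0.29 ± 0.13 (adjusted p = 0.114), passed without WT 4 h replicate 2 (0.000258) or WT 8 h replicate 1 (0.0107).

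The partner genes of each member were taken from lists chosen with earlier results of these data known. Over all genes tested, 12.2% were called lower and 16.0% higher in total RNA, and 32.9% lower and 29.8% higher at 0 h. Of 8 genes of LIF-STAT3 signalling, which acts upstream of Gbx2 in ESCs, 4 fell in KO total RNA and none rose (1 with library totals alone), with a median log2 change of -0.65 against 0.01 over all genes tested. They include the receptor chains Lifr (-1.70 ± 0.20, adjusted p = 0.00039) and Il6st (-1.36 ± 0.17, adjusted p = 0.000466) and the feedback inhibitor Socs3 (-0.95 ± 0.14, adjusted p = 0.00108). At 0 h 6 of the 8 fell and 1 rose, and with RLE scaling or DESeq2 none rose. Of the partners of Gbx2 at the midbrain-hindbrain boundary, 3 of 6 tested fell and none rose in total RNA, among them the signal Fgf8 (-2.32 ± 0.51, adjusted p = 0.00807) and the homeobox factor Otx2 (-1.25 ± 0.31, adjusted p = 0.0152). At 0 h 4 of 5 tested partners fell and 1 rose (0 with DESeq2). In polysomes 1 of 6 fell and none rose, where 3859 of 18303 genes tested were called lower.

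Of 8 GATA factors and cofactors, which are relatives of Trps1 or bind them, 3 rose in KO total RNA, none fell and 5 did not pass, with Gata2 at 2.04 ± 0.24 (adjusted p = 0.000427) and the cofactor Zfpm1 at 1.24 ± 0.21 (adjusted p = 0.00225), and at 0 h 5 of 7 tested rose (3 with RLE scaling or DESeq2). For Trh, 3 of 7 tested genes of hormone processing, receptors and breakdown rose and none fell, among them Qpct, which cyclises the N-terminal glutamine of the hormone (1.59 ± 0.31, adjusted p = 0.00497). The prohormone convertase Pcsk2 rose by 1.5 ± 0.36 in total RNA (adjusted p = 0.0118), and at 0 h its change was 0.09 ± 0.41 (adjusted p = 0.865). For A2m, 2 of 9 genes of its family and receptor rose in total RNA and none fell, namely the surface protein Cd109 (1.74 ± 0.22, adjusted p = 0.000562) and the complement component C4b (1.59 ± 0.26, adjusted p = 0.00181). Of all genes tested, 16.0% were called higher and 12.2% lower in total RNA, and the A2m count lies near that share. The GATA list shares genes with the trophoblast and endoderm marker lists below, so their counts are not separate.

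Among the enzymes related to Enpp3, 1 of 11 ectonucleotidases tested fell and 4 rose in total RNA (2 with DESeq2). The one that fell was Enpp2, which makes lysophosphatidic acid (-1.88 ± 0.24, adjusted p = 0.000562), and Entpd1 rose by 1.37 ± 0.30 (adjusted p = 0.00824). Of 12 fucosylation genes tested, 2 fell (0 with library totals alone) and 3 rose (1 with DESeq2) in total RNA, where 12.2% of all genes tested were called lower and 16.0% higher. Fut4, which can also make the Lewis X epitope, rose by 1.73 ± 0.23 (adjusted p = 0.000677) and at 0 h by 2.61 ± 0.23 (adjusted p = 6.22e-13), and Pofut2 fell by 0.69 on the log2 scale in total RNA (adjusted p = 0.0267). Of 6 tested members of the B7 family and its receptors, which Icosl belongs to, 3 rose in total RNA and none fell, with Vsir at 1.46 ± 0.19 (adjusted p = 0.000599) and Cd274 at 1.00 ± 0.27 (adjusted p = 0.0187). The median log2 change in total RNA, against 0.01 over all genes tested, was -0.63 for the boundary partners, 0.72 for the GATA list, 0.88 for the Trh list, 0.81 for the A2m list, 0.63 for the ectonucleotidases, 0.09 for fucosylation and 0.65 for the B7 family.

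In the same comparison, markers of cell types had median log2 changes of 1.78 for trophoblast, -0.98 for ESC, 0.86 for fibroblast, -0.17 for endoderm and -0.08 for blood cell markers in total RNA. Of all genes tested there, 12.2% were called lower and 16.0% higher. The summed levels below are CPM of the library's total with no TMM scaling, unlike the log2 changes. The TMM factors of total RNA libraries were 0.810 and 0.842 in WT and 0.989 and 0.993 in KO. TMM scaling would thus raise the WT sums relative to the KO sums. The summed level of 8 trophoblast markers was 606 to 624 CPM in KO total RNA against 143 to 154 CPM in WT total RNA, and 6 of the 8 rose, with Hand1 at 2.77 ± 0.38 (adjusted p = 0.000818) and Krt18 at 2.38 ± 0.36 (adjusted p = 0.0013). The summed level of 8 ESC markers was 3256 to 3430 CPM in KO against 5305 to 5596 CPM in WT. Of these 8, 6 fell and 2 did not pass, with Dppa5a at -1.26 ± 0.20 (adjusted p = 0.00147) and Sox2 at -1.01 ± 0.20 (adjusted p = 0.00452). Fibroblast markers summed to 50.6 to 56.4 CPM in KO against 23.7 to 26.7 CPM in WT, and 6 of 7 tested rose, Thy1 and Fbn1 among them. Endoderm markers summed to 37.5 to 42.4 CPM in KO against 36.3 to 40.6 CPM in WT, and 1 of 6 tested, Foxa2, rose. Blood cell markers summed to 6.47 to 6.73 CPM in KO against 6.65 to 7.23 CPM in WT, with 1 of 4 tested higher and 1 lower. The endoderm and blood cell sums depend on the scaling and give no direction between KO and WT. No marker of the 5 lists was at 0 reads in both libraries of either total RNA group. At 0 h the same sums were 285 to 299.9 CPM for trophoblast markers and 4233 to 4259 CPM for ESC markers in KO, against 148 to 160.3 CPM and 5366 to 5394 CPM in WT. There 7 of the 8 ESC markers fell and 1 rose (0 with RLE scaling or DESeq2), where 32.9% of all genes tested were called lower and 29.8% higher. Of the 24 list genes named, the calls of Lifr, Il6st, Socs3, Dppa5a, Gata2, Cd109, C4b, Enpp2, Fut4, Vsir, Hand1 and Krt18 in total RNA held under every alternative, and those of the other 12 were lost in 1 or more fits, mostly without 1 of the 4 total libraries, with adjusted p between 0.0503 and 0.215. The part of these marker changes in the falls of the 7 genes was not tested.

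The genes whose levels ran most like each member were sought among 8795 protein-coding genes by Pearson's r of log2 CPM over the 20 libraries, after centring total, polysome and actinomycin D libraries on their own means. All 20 libraries share the KO and WT groups on which the members were chosen, so r is a description. Closest to Trps1 were the Wnt receptor Fzd5 (r = 0.992) and Zfp984 (0.984), and closest to Gbx2 were the arrestin-domain gene Arrdc3 (0.992) and the growth factor Fgf4 (0.99). Fgf4 fell over 8 h of actinomycin D by log2 changes of -3.45 in KO and -3.45 in WT. Trh ran most like the growth factor Fgf17 (0.991) and the cationic amino acid transporter Slc7a3 (0.99), and Enpp3 like Slc7a3 (0.987) and Mymx (0.985). Fut9 ran most like the LIF receptor Lifr (0.989) and Zfp981 (0.988), and the change of Lifr over 8 h was -1.39 ± 0.061 in KO and -0.80 ± 0.052 in WT (log2). Closest to A2m were Ly75 (0.982) and Nphs1 (0.974), and closest to Icosl were Zdhhc18 (0.986) and Erlin2 (0.985).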

How the data were processed

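The deposited files hold whole-number counts of reads per gene for 20 libraries. Per the submitters' processing notes, the authors used STAR 2.3.0e, HTSeq (version not given in the sources used here) and mm9. Symbols, positions and 3′UTRs were taken by gene ID from GENCODE M21 on GRCm38, and no coordinate was converted. Counts were fitted with edgeR 4.0.16 in R 4.3.3 (filterByExpr with a minimum count of 10, TMM, robust quasi-likelihood F-test, Benjamini-Hochberg adjustment over all genes tested, threshold 0.05), with 1 fit for the 8 day 3 libraries, 1 for the 12 actinomycin D libraries and 1 for total and 0 h libraries. The fit was also run on simulated counts with a small set of changed genes, balanced between rises and falls, so the choice of scaling was not checked there. The members and the gene lists were chosen with earlier results of these data known. List genes named are among the 4 with the smallest adjusted p in total RNA, and most-like genes are the 2 with the highest r. Alternatives were RLE scaling, library totals, no filter, DESeq2 1.42.0, a replicate block, only the libraries compared, scaling to 82 ribosomal protein mRNAs and each library left out; with 1 library left, its spread is assumed to be that of the other groups. Counts relative to library size show no absolute loss. With 2 libraries a group, the p-values rest on the spread between these libraries, and the fit estimates each gene's spread partly from that of other genes.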

Additional observations from a re-analysis of the deposited data

Results flagged for a closer look

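For 4 genes the KO effect at 8 h of actinomycin D differed from that at 4 h, by a test of the difference itself in edgeR over 15823 genes. The KO effect of Trps1 moved by -0.86 on the log2 scale (adjusted p = 0.00124), that of Gbx2 by -1.14 (adjusted p = 0.0119) and that of Fut9 by -0.60 (adjusted p = 0.0288), so all 3 were further below WT at 8 h than at 4 h. The calls of Gbx2 and Fut9 did not hold under every alternative tried. From 0 to 4 h the KO effect had moved by 1.39 ± 0.26 for Gbx2, 0.43 ± 0.17 for Trps1 and 0.01 ± 0.18 for Fut9, given as a description. Gbx2 was at -1.82 ± 0.096 at 0 h and at -1.58 ± 0.24 at 8 h, so it was not further below WT at 8 h than at 0 h. The KO effect of Trh moved by 0.24 (adjusted p = 0.000986), towards WT. Both KO libraries lay below both WT libraries at each time for all 4 genes. Of 15823 genes tested, 6573 were so separated at 0 h, 6327 at 4 h and 6985 at 8 h. The separation is thus common and adds nothing to the tests. Groups of 2 libraries allow no test for single libraries that stand apart.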

How the results depend on the processing

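All-gene counts moved by over 1.5 times under several settings. With library totals alone, 908 genes were lower and 5179 higher in total RNA (2225 and 2931 as reported), 3396 lower at 0 h, 3143 lower at 4 h, 3695 lower at 8 h, and 2246 higher in the WT late interval, with 3 of the 6 genes lower there. Scaled to ribosomal protein mRNAs, 836 were lower at 4 h, 1166 lower at 8 h, 954 lower and 2665 higher in the late interval of KO minus WT, and 8696 lower and 232 higher in that of WT, where 3 of the 6 genes were lower and 0 higher. DESeq2 called 1939 higher in total RNA, 2681 higher at 0 h, 1078 higher in the late interval of KO minus WT and 0 of the 6 genes lower in that of WT, as did RLE scaling (0). With no filter, 0 of the 6 were lower and 2 higher in the WT late interval. A fit of only the libraries compared called 5467 lower and 5469 higher in total RNA. The replicate block made 2 of the 6 genes higher in the WT late interval, since A2m passed (adjusted p = 0.000213), and 1 gene of the Trh list was lower at 0 h (0 as reported). It changed no other count beyond 1.5 times. Replicate numbers did not pair the libraries (r of replicate differences between -0.0553 and 0.224).

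With each library left out in turn, each of the 4 total RNA libraries moved those counts, to 603 to 1120 genes lower and 656 to 996 higher, 0 h gave 4574 to 4874 lower and 3917 to 4261 higher, and the 4 h and 8 h comparisons gave 4554 to 4986 and 5230 to 5569 lower. The late interval of KO minus WT gave 1134 (without WT 8 h replicate 1) to 1797 lower and 1301 to 1910 higher, with 1 (without KO 8 h replicate 1) to 3 of the 6 genes lower and 1 higher, and that of WT gave 3150 to 3375 lower and 3081 to 3721 higher, with 0 to 1 of the 6 lower and 1 to 2 higher. The 5 and 6 genes lower at 4 and 8 h stayed at 5 and 6. Over all alternatives 22 of 354 tested values of the genes lost a call and 10 gained one. The direction turned in 2 cases, both in the late interval of KO with ribosomal protein mRNAs, where Trh was at -0.18 (0.14 as reported) and Enpp3 at -0.27 (0.06). The alternatives for that interval and for polysomes minus total RNA were chosen after seeing the data. Scaling shifted the median of all genes, to 0.28 in total RNA with library totals and to 0.64 at 4 h and 0.68 at 8 h with ribosomal protein mRNAs. The share of calls that were higher moved from 56.9% to 85.1% in total RNA with library totals, and from 49.6% to 73.6% in the late interval of KO minus WT with ribosomal protein mRNAs. Gbx2 rested on 18 to 45 reads a library in KO at 4 and 8 h and in WT at 4 h, which limits its precision.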
